A study of Mus musculus with 47 samples.

Results

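The 9 genes described here encode enzymes of leucine breakdown, most of them mitochondrial, and they were followed through RNA-seq libraries of mouse brainstem and hippocampus. *Auh* was chosen because its brainstem level differed between transgenic and wild-type mice in an earlier reading of these same libraries, and *Bcat1*, *Bcat2*, *Bckdha*, *Bckdhb*, *Dbt*, *Ivd*, *Mccc1* and *Mccc2* because they act in the same pathway. All 9 were found by Ensembl gene identifier in both count tables, which list 33139 gene rows in brainstem and 31751 in hippocampus, and all 9 had a mean count of at least 50 and were among the 13340 and 13272 genes tested. The values that chose *Auh* are its brainstem genotype contrasts, which are therefore given as a description with no p-value.

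The mice were C57BL/6 males. Transgenic animals (TG) were homozygous for a human transgene, which in this line is driven by the Thy1 promoter in neurons of the central nervous system, and wild-type animals (WT) came from the same outcross but were kept as a separate colony, so transgene and colony cannot be told apart. Each genotype was fed standard diet (SD) or high-fat diet (HFD) from 5 weeks until 12 months of age, which gave the groups WT_SD, TG_SD, WT_HFD and TG_HFD. Brainstem had 5 WT_SD libraries and 6 in each other group, and hippocampus had 6 in every group, 47 in all. Total counts ran from 10020784 to 15078812 per library in brainstem and from 11945971 to 17328447 in hippocampus. Each library of a region came from a different animal, brainstem was the medulla and hippocampus was taken whole, and the authors left out 1 WT_SD brainstem sample for low RNA integrity. The labels do not say which brainstem and hippocampus libraries came from the same animal.

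Leucine is first transaminated by a branched-chain aminotransferase, BCAT1 in the cytosol or BCAT2 in mitochondria, and the resulting keto acid is decarboxylated by the branched-chain keto acid dehydrogenase complex (BCKDH), in which BCKDHA and BCKDHB form the decarboxylase and DBT is the transacylase core. Isovaleryl-CoA dehydrogenase (IVD) and 3-methylcrotonyl-CoA carboxylase, built from the biotin-bearing subunit MCCC1 and the subunit MCCC2, carry the carbon skeleton on to 3-methylglutaconyl-CoA. AUH hydrates that intermediate to HMG-CoA, from which ketone bodies and acetyl-CoA are made, and AUH is also known as a protein that binds AU-rich RNA; loss of AUH in humans causes 3-methylglutaconic aciduria.

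*Auh* (ENSMUSG00000021460) lies on chromosome 13. Promoter sequences were available from RefSeq on the build GRCm38.p6 for 8 of the 9 genes, 250 bases before to 50 bases after the annotated start, and those of *Auh* (chr13:52929628-52929927, minus strand), *Mccc1* (chr3:36000629-36000928, minus strand) and *Bckdhb* (chr9:83924887-83925186, plus strand, the first of 2 listed) are shown because these genes, with *Bcat1*, were the ones lower in hippocampus than in brainstem and their windows share a motif. Capitals mark the GC box GGGCGG and the CCAAT box CCAAT on either strand.
Auh promoter: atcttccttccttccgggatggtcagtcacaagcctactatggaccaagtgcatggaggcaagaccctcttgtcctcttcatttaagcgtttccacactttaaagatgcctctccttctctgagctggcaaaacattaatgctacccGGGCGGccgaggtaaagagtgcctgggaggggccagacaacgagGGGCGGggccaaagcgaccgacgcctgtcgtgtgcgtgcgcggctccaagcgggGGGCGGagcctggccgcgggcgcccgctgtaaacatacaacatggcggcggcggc
Mccc1 promoter: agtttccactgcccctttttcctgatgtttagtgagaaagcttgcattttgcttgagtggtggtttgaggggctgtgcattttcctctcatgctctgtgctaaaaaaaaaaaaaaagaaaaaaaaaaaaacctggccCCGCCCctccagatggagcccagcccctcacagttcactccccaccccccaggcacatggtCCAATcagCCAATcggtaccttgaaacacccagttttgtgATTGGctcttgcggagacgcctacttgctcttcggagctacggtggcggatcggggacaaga
Bckdhb promoter: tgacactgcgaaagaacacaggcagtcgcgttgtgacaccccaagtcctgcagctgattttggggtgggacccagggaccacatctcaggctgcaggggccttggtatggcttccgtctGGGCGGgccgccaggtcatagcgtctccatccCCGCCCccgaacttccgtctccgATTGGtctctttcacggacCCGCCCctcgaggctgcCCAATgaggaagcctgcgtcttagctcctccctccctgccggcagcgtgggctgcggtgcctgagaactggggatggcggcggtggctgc
The *Auh* window held 3 GC boxes and no CCAAT box, and 23 CpG dinucleotides against a median of 7.0 over 32851 mouse promoters of the same length. The GC box occurred in 3 of the 11 windows listed for the 9 genes, the ones printed here, and in 35.7% of all promoters. No window of *Bcat1*, also lower in hippocampus, held a GC box. The CCAAT box occurred in 6 of the 11, in windows of *Bcat1*, *Bckdhb*, *Ivd*, *Mccc1* and *Mccc2*, and in 37.4% of all promoters. The E-box CACGTG was found only in the *Mccc2* window, the TATA box TATAAA only in 1 of the *Bcat1* windows, and the letters searched for NRF1, GABPA (CCGGAAGT) and ERRA (AAGGTCA) in none of the 11. No measurement in these libraries bears on binding at these letters.

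In brainstem, *Auh* was lower in both TG groups than in the WT group on the same diet. Levels are given as CPM, read counts divided by the library's reads on the tested genes and scaled within the region. The 5 WT_SD libraries had 60.6, 67.0, 70.2, 70.8 and 73.0 CPM, a mean of 68.3 ± 4.83 (SD, n = 5). The 6 TG_SD libraries ran from 43.6 to 52.1 CPM with a median of 48.6, a mean of 48.1 ± 3.84 (SD, n = 6). On HFD, WT libraries ran from 49.9 to 66.8 CPM with a median of 60.6, and TG libraries from 43.7 to 49.6 CPM with a median of 46.5. Neither diet gave any overlap between genotypes, although the lowest WT_HFD library was only just above the highest TG_HFD library. Across diets the 12 TG libraries were at 43.6 to 52.1 CPM and the 11 WT libraries at 49.9 to 73.0, and 2 WT libraries, both on HFD, were at or below the highest TG library. Among the 13340 genes tested, 0.532% had no overlap between TG_SD and WT_SD and 0.682% between TG_HFD and WT_HFD, but *Auh* was chosen on these contrasts and nothing is read from its place among them.

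The fitted log2 fold change of *Auh* in brainstem was −0.53 (SE 0.0589) for TG_SD/WT_SD, −0.30 (SE 0.0724) for TG_HFD/WT_HFD and −0.41 (SE 0.0468) for the mean of both diets. In percent, TG libraries averaged 25.2% below WT libraries. The genotype difference was smaller on HFD than on SD by 0.23 (SE 0.0933) on the log2 scale, given with no p-value. Its size depended on the fit. It was 0.16 (SE 0.102) without surrogate variables (terms for variation that many genes share). Over all settings it ran from 0.13 (SE 0.093) without the libraries numbered 7 to 0.28 (SE 0.0825) with no filter on low counts. That smaller difference went with the WT groups, whose mean was 68.3 CPM on SD and 59.2 on HFD, while the TG means were 48.1 and 46.6. Genes called in TG_SD/WT_SD (adjusted p of at most 0.05 in edgeR's quasi-likelihood test and a log2 fold change of at least 0.3 either way) made up 0.142% of those tested, 0.0225% called lower, in TG_HFD/WT_HFD 0.0525%, in the mean of both diets 0.09% and in the difference between diets 0.0075%. The TG_HFD/WT_HFD value of *Auh*, −0.2958 before rounding, was just short of the fold threshold and met neither threshold of a call. It lay between −0.34 and −0.22 when single libraries were left out, with the value nearest 0 without WT_HFD replicate 8. Over the other settings it ran from −0.36 without the libraries numbered 7 to −0.25 with 3 surrogate variables.

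**Figure D1:**
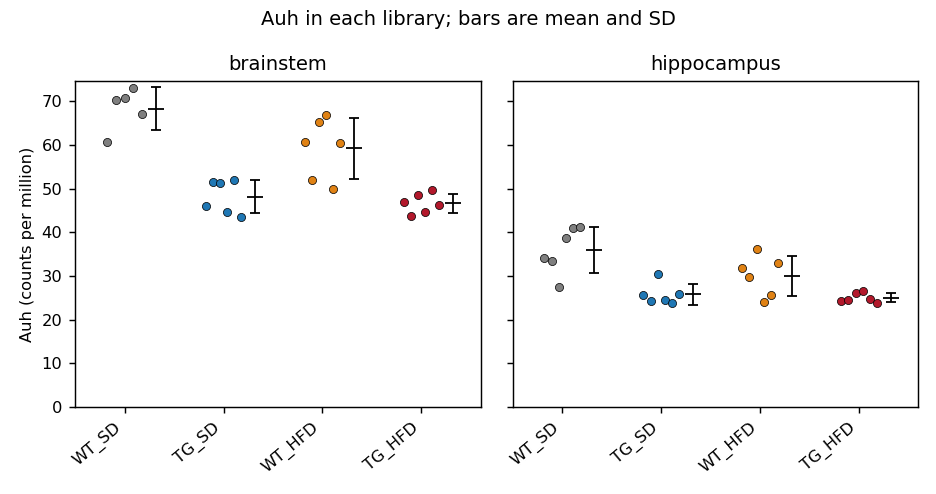
CPM of *Auh* (y axis, from 0) in every library of the 4 groups (x axis), brainstem left and hippocampus right; bars beside the points are the mean and SD. In brainstem the TG points sit between 43.6 and 52.1 and the WT points between 49.9 and 73.0, and in hippocampus the TG points sit between 23.9 and 30.5 and the WT points between 23.97 and 41.2.

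The hippocampus libraries are other libraries than those of the contrasts that chose *Auh*. By the paper, however, both regions were taken from 6 animals per group, so hippocampus cannot be read as an independent set of mice. In hippocampus *Auh* was also lower in TG mice on SD. The WT_SD libraries ran from 27.6 to 41.2 CPM with a median of 36.4, and the TG_SD libraries from 23.9 to 30.5 with a median of 25.1. The groups overlapped (0.264% of genes had none): the lowest WT_SD library, replicate 5, was below the highest TG_SD library, which also bears the number 5. On HFD, WT libraries ran from 23.97 to 36.1 CPM with a median of 30.8 and TG libraries from 23.9 to 26.5 with a median of 24.6, so that 2 of the 6 WT_HFD libraries lay within the TG_HFD range, and 4.15% of genes had no overlap on HFD. For TG_SD/WT_SD the fitted log2 ratio was −0.52 (SE 0.0895, edgeR adjusted p = 0.00284), where 0.098% of 13272 genes were called and 0.0377% called lower. It was −0.44 (SE 0.0803, edgeR adjusted p = 0.00304) for the mean of both diets, where 0.256% were called and 0.143% called lower. For TG_HFD/WT_HFD it was −0.36 (SE 0.119, edgeR adjusted p = 0.202), which did not pass, while 0.226% of genes did. These HFD values depended on the number of surrogate variables, 4 in this fit. Without them *Auh* was at −0.27 (SE 0.0925, edgeR adjusted p = 0.0801), and 515 of 13272 genes were called, and 190 in the mean of both diets. With 2 it was at −0.27 (SE 0.0912, edgeR adjusted p = 0.0483), under the fold threshold. Then 634 genes were called, against 28 with 3. The difference between the diets in this genotype effect was 0.16 (SE 0.136, edgeR adjusted p = 0.94), so the SD and HFD effects are not shown to differ, and it was 0.06 without WT_SD replicate 8 and 0.26 without WT_SD replicate 5.

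In a fit to the SD groups alone the hippocampal TG_SD/WT_SD value was −0.48 with an edgeR adjusted p of 0.112, and without the libraries numbered 7 in every group it was −0.48 with an edgeR adjusted p of 0.0546. Leaving out any single hippocampus library kept it called, with adjusted p from 0.000102 to 0.047. As a percentage, the fitted TG_SD/WT_SD change was −30.2% in hippocampus and −30.7% in brainstem. The difference of the genotype effect between the regions, hippocampus minus brainstem, was 0.05 (SE 0.0846), where 0.0223% of genes were called, and that of the diet effect −0.02 (SE 0.0845, edgeR adjusted p = 1), where 0 were. In whole tissue, fewer cells that make a transcript and less transcript in each cell cannot be told apart.

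Over both diets, the coefficient of variation of *Auh* was 11.8% in WT and 6.56% in TG brainstem, and 17.1% and 7.23% in hippocampus. Within a diet the order was not the same throughout: in brainstem it was 7.06% in WT_SD and 7.97% in TG_SD, but 11.6% in WT_HFD and 4.84% in TG_HFD. In brainstem WT_HFD/WT_SD was −0.25 (SE 0.0624), with no p-value because both groups were part of the contrasts that chose *Auh*. In hippocampus it was −0.20 (SE 0.1, edgeR adjusted p = 0.795), and neither value was called. The hippocampal value was −0.30 without WT_SD replicate 5 and −0.11 without WT_SD replicate 8. TG_HFD/TG_SD was −0.02 in brainstem (SE 0.0623), again with no p-value, and −0.04 in hippocampus (SE 0.0885, edgeR adjusted p = 0.967). In the main fits no diet contrast of WT mice called any gene in either region (0 of 13340 and 0 of 13272). There, 724 genes (5.43%) and 851 genes (6.41%) had an unadjusted p under 0.05 in edgeR. Other settings called some in hippocampus: 23 genes with 1 surrogate variable, 30 with 2 and 13 with no filter on low counts. Without surrogate variables 0 were called there. Brainstem had 3 with no such filter and 1 in DESeq2, and *Auh* was called in none of the settings. In the main fits TG_HFD/TG_SD and the mean HFD/SD called 0.0075% of genes each in brainstem and 0 in hippocampus, none of them an enzyme of the 9. Of the WT_HFD libraries, replicate 7 was the lowest in brainstem at 49.9 CPM and among the lowest in hippocampus at 25.7 CPM.

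Of the 5 tested genes on each side of *Auh* in annotation order, 0 of 10 were called in brainstem and 0 of 10 in hippocampus, in any of the 7 contrasts, beside 0.09% and 0.256% of all genes in mean TG/WT. In brainstem the mean TG/WT of the adjacent genes was −0.02 (SE 0.0365) for *Diras2* and −0.13 (SE 0.114) for *Nfil3*, and *Sptlc1*, a subunit of the enzyme that starts sphingolipid synthesis, stood at 0.09 (SE 0.0436). The farthest from 0 were *Hrh2*, a histamine receptor, at −0.21 (SE 0.107) in brainstem and *Gadd45g*, a stress-induced growth arrest gene, at 0.29 (SE 0.114) in hippocampus, where *Drd1*, a dopamine receptor, was at −0.25 (SE 0.128). In hippocampal TG_HFD/WT_HFD, *Gadd45g* was at 0.43 (SE 0.165, edgeR adjusted p = 0.281), farther from 0 than *Auh* and in the other direction. Mean TG/WT values of *Shc3*, *Secisbp2*, *Sema4d*, *Sfxn1*, *Cplx2* and *Gm2762*, where tested, lay between −0.06 and 0.21.

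**Figure D2:**
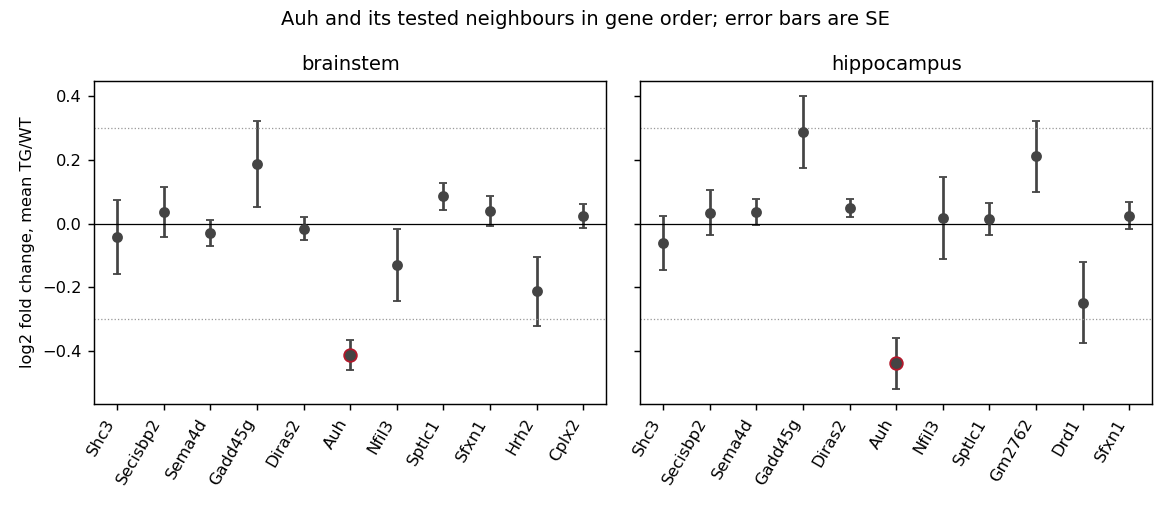
Log2 fold change of TG over WT, mean of both diets (y axis; bars are SE, dotted lines the 0.3 threshold), for *Auh*, ringed in red, and the 5 tested genes on each side of it, in gene order along chromosome 13 and not to scale (x axis). *Auh* lies at −0.41 in brainstem and −0.44 in hippocampus and every neighbour lies between −0.25 and 0.29.

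None of the other 8 enzymes was called in a genotype or diet contrast in either region, against 0.142% and 0.098% of all genes in TG_SD/WT_SD. At an unadjusted p under 0.05 in that contrast edgeR had 1 of the 8 in brainstem, where 10.5% of all genes passed, and 2 in hippocampus, where 9.08% did, and DESeq2 called none. For the aminotransferases, *Bcat1* in brainstem ran from 200 to 256.1 CPM in TG and from 209.5 to 272.6 in WT libraries, ranges that overlap over most of their length, and its mean TG/WT was −0.10 (SE 0.0256, edgeR adjusted p = 0.0764). That value was −0.10 with an adjusted p of 0.0111 in DESeq2. Without surrogate variables it was −0.05 (SE 0.046, edgeR adjusted p = 0.567), and the TG_HFD/WT_HFD of *Bcat1* moved from −0.10 to 0.02. *Bcat2* was the scarcest transcript by count, with 4.85 to 8.25 CPM in brainstem and 5.46 to 8.77 in hippocampus. Its TG_HFD/WT_HFD value in brainstem was −0.15 (SE 0.144, edgeR adjusted p = 0.964), and −0.32 (SE 0.117, edgeR adjusted p = 0.16) without surrogate variables.

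None of the 3 dehydrogenase genes passed. *Bckdha* had 5.84 to 11.4 CPM in brainstem and 6.07 to 10.5 in hippocampus, with fitted mean TG/WT values of 0.06 (SE 0.0892) and −0.05 (SE 0.0985). Its raw means were 11.3% lower in TG brainstem and 13% lower in TG hippocampus, and without surrogate variables the fitted values were −0.16 (SE 0.101, edgeR adjusted p = 0.421) and −0.19 (SE 0.0836, edgeR adjusted p = 0.164). *Bckdhb* was nearly even, with WT and TG medians of 31.4 and 30.5 CPM in brainstem and 17.1 and 17.3 in hippocampus. *Dbt* had a brainstem median of 19.3 CPM in WT and 23.3 in TG libraries, with a fitted mean TG/WT of 0.03 (SE 0.0553) and of 0.16 (SE 0.0682, edgeR adjusted p = 0.24) without surrogate variables. In hippocampus *Dbt* was −0.20 (SE 0.066, edgeR adjusted p = 0.283) for TG_SD/WT_SD, which did not pass, and −0.12 (SE 0.0768, edgeR adjusted p = 0.914) without surrogate variables, where its mean TG/WT moved from −0.14 to 0.0026.

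Among the later steps, *Ivd* had a level between 62.5 and 82.7 CPM in brainstem and between 71.8 and 94.2 in hippocampus. Its TG_SD/WT_SD value in hippocampus was −0.12 (SE 0.0408, edgeR adjusted p = 0.295), and −0.06 (SE 0.0564, edgeR adjusted p = 0.947) without surrogate variables. *Mccc1* and *Mccc2*, whose products form 1 carboxylase and supply the substrate of AUH, had mean TG/WT values of 0.05 (SE 0.0674) and −0.01 (SE 0.0636) in brainstem, and −0.12 (SE 0.0745) and −0.03 (SE 0.053) in hippocampus, where they were −0.02 (SE 0.0681) and 0.05 (SE 0.0473) without surrogate variables. The farthest diet value of the 8 was that of *Mccc2* in brainstem, WT_HFD/WT_SD, at −0.22 (SE 0.0872, edgeR adjusted p = 0.896), with 16.0 to 24.4 CPM in WT_SD and 15.7 to 21.3 in WT_HFD libraries. Over both regions, in the fits with surrogate variables, the 95% intervals of the mean TG/WT of the 8 reached from −0.26 to 0.23, and the interval of hippocampal *Auh* ran from −0.60 to −0.28.

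**Figure D3:**
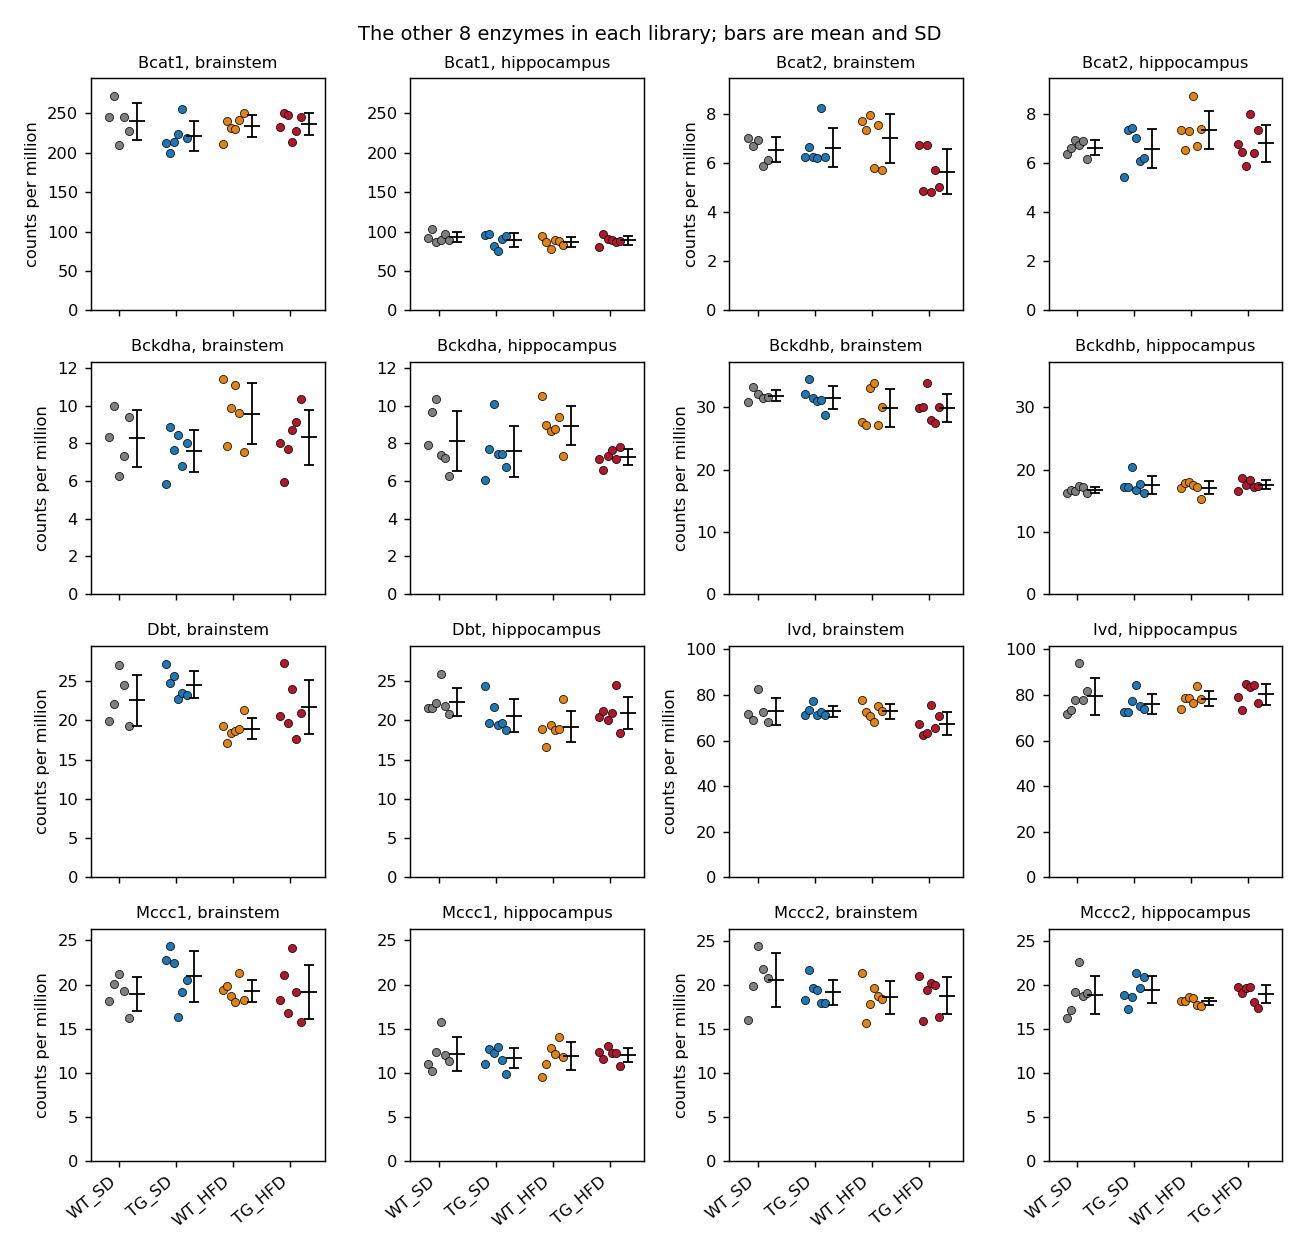
CPM (y axes, from 0, shared between the regions of a gene) of the other 8 enzymes in every library of the 4 groups (x axes); bars are the mean and SD. TG and WT points overlap in every panel pair, and *Bcat1*, *Bckdhb* and *Mccc1* sit lower in hippocampus, as *Bcat1* does at 75.4 to 103.7 against 200 to 272.6 in brainstem.

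**Figure D4:**
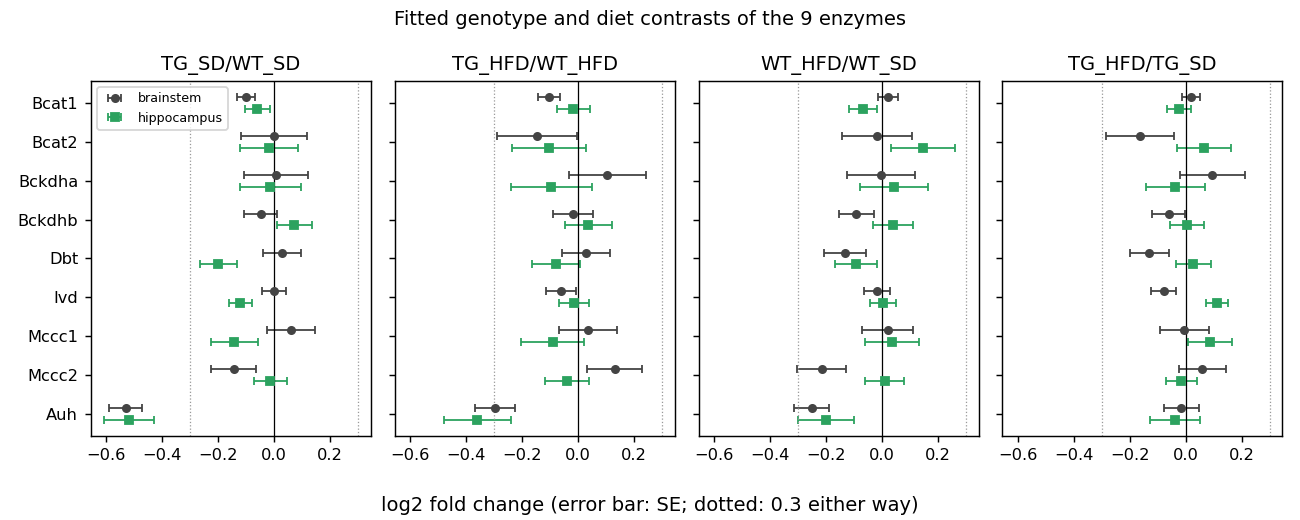
Fitted log2 fold changes (x axis; bars are SE, dotted lines the 0.3 threshold) of the 9 enzymes (y axis) in the 4 genotype and diet contrasts, brainstem as circles and hippocampus as squares. *Auh* alone passes −0.3 in TG_SD/WT_SD, at −0.53 and −0.52, and the other 8 lie between −0.22 and 0.15 in all 4 contrasts.

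No gene of 6 lists from neighbouring pathways was called within a region. Transport of branched-chain amino acids (BCAA; 5 genes tested), control of BCKDH and its shared E3 subunit (3), leucine end products and ketone bodies (5), the isoleucine and valine branches (10), propionate handling and biotin supply (8) and the enoyl-CoA hydratase and isomerase family to which AUH belongs (9) had 0 genes called in each of the 7 contrasts of each region. Over all genes tested, hippocampal mean TG/WT called 0.256% and had 1813 genes (13.7%) at an unadjusted p under 0.05, which included 3 of the 8 propionate and biotin genes, 2 of the 10 isoleucine and valine genes and 1 of the 5 BCAA transport genes, and none of the other 3 lists. In that contrast *Pcca*, the biotin-bearing subunit of propionyl-CoA carboxylase, was at −0.21 (SE 0.0483, edgeR adjusted p = 0.0321), under the fold threshold. *Mmut*, methylmalonyl-CoA mutase, was at −0.14 (SE 0.0443, adjusted p = 0.133) and *Aldh6a1*, of the valine branch, at −0.16 (SE 0.046, adjusted p = 0.0772). *Slc43a2*, a BCAA transporter, was at −0.12, and *Hadhb*, *Hadha*, *Eci1*, *Ppm1k*, *Dld* and *Slc7a8* lay between −0.09 and 0.04. The medians of these 6 lists ran from −0.09 to 0.02, and the median of the 9 enzymes was −0.06, beside −0.00203 over all genes.

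Between regions, 4 of the 9 enzymes were called, all lower in hippocampus. The fit of all 47 libraries called 60.2% of 13458 genes, 31% lower in hippocampus, and the 4 of 9 are read against those shares: most genes differ between these regions. *Bcat1* had the widest gap, a hippocampus/brainstem log2 ratio of −1.34 (SE 0.0328, edgeR adjusted p = 4.92e-37). *Auh* followed at −0.88 (SE 0.0423, adjusted p = 1.14e-24), then *Bckdhb* at −0.80 (SE 0.0302, adjusted p = 6.69e-29) and *Mccc1* at −0.67 (SE 0.0492, adjusted p = 1.64e-17). *Auh* was lower in hippocampus in each group, at −0.88 in WT_SD, −0.93 in WT_HFD, −0.86 in TG_SD and −0.86 in TG_HFD, contrasts that called 59.5%, 61.5%, 60.8% and 58.6% of genes.

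*Bckdha*, *Dbt* and *Mccc2*, which share a complex with *Bckdhb* or *Mccc1*, were not called between regions, while *Dld*, the E3 subunit shared by BCKDH and other dehydrogenases, was (−0.36). *Bckdha* was at −0.04 (SE 0.0657, edgeR adjusted p = 0.566) beside −0.80 for *Bckdhb*, with which it forms the BCKDH decarboxylase, and *Dbt* at −0.04 (SE 0.0437, adjusted p = 0.45). *Mccc2* was at 0.01 (SE 0.0398, adjusted p = 0.873) beside −0.67 for *Mccc1*. *Ivd* at 0.18 (SE 0.0269, adjusted p = 7.12e-08) and *Bcat2* at 0.13 (SE 0.0514, adjusted p = 0.0191) were higher in hippocampus by less than the fold threshold. *Bcat2* passed it in TG_HFD alone, at 0.32 (SE 0.102, adjusted p = 0.00557), and was below it under library totals (0.28), surrogate variables (0.27), a GC offset (0.24) and without brainstem TG_HFD replicate 3, 6 or 8 or hippocampus TG_HFD replicate 6 or 8. Over the 9 genes the median was −0.04, and −0.0206 over all genes.

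Related genes were called between regions as well, and their counts stand beside 60.2% of all genes called and 31% called lower. In the isoleucine and valine branches 8 of 10 were called lower in hippocampus and none higher, with a list median of −0.39: *Hadhb* (−1.07), *Hibadh* (−1.002), *Hibch* (−0.83), *Hadha* (−0.64), *Aldh6a1* (−0.39), *Echs1* (−0.39), *Acaa2* (−0.37) and *Acadsb* (−0.30). In the enoyl-CoA hydratase and isomerase family, which shares *Hibch*, *Hadha* and *Echs1* with that list, 7 of 10 were called lower, *Echdc1* (−0.90), *Eci1* (−0.72), *Eci2* (−0.55) and *Ehhadh* (−0.49) among them, and *Echdc2* was higher (0.98). Of the 8 propionate and biotin genes 3 were lower, among them *Hlcs* (−0.89), the ligase that attaches biotin to carboxylases such as MCCC1, beside *Btd* (−0.47), which recycles biotin, and *Mmut* (−0.39). The BCAA transporters *Slc7a8* (2.23) and *Slc25a44* (0.98, the mitochondrial carrier) were higher in hippocampus and *Slc43a2* (−0.62) lower. Of the BCKDH regulators, *Ppm1k*, the phosphatase that activates the complex, was higher (0.46), *Bckdk*, the kinase that restrains it, was at 0.06 (SE 0.0327, adjusted p = 0.064), and *Dld* was lower. *Acat1* (−0.34) was the 1 gene called of the 5 of leucine end products and ketone bodies.

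Cell content differed between the regions in the same libraries. The summed level of 6 oligodendrocyte markers was 12510 to 21050 CPM in brainstem and 2926 to 4625 in hippocampus, that of 6 astrocyte markers 2618 to 3531 and 3925 to 5012, and that of 6 neuron markers 4300 to 4990 and 4510 to 5223. None of these markers was under 1 CPM in either region, and their part in the region differences was not tested. The tissue labels matched the markers: 7 hippocampal markers summed to 675.5 to 815.7 CPM in hippocampus and 68.3 to 118 in brainstem, and the 4 of 7 brainstem markers listed in the hippocampus table summed to at most 0.505 CPM there, against 337.2 to 580 in brainstem. Between genotypes, the mean log2 level of the neuron list differed by −0.05 in both regions and that of the oligodendrocyte list by −0.05 in brainstem and 0.04 in hippocampus, and that of the astrocyte list by 0.13 in brainstem. The mean log2 level of the meninges list differed by −0.34 in hippocampus, where 1 of its 5 markers was under 1 CPM. Its summed level overlapped between genotypes: 56.7 to 97.0 CPM in WT_SD, 65.9 to 85.8 in WT_HFD, 53.7 to 91.5 in TG_SD and 60.25 to 100.4 in TG_HFD. The part of this list in the *Auh* difference was not tested.

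**Figure D5:**
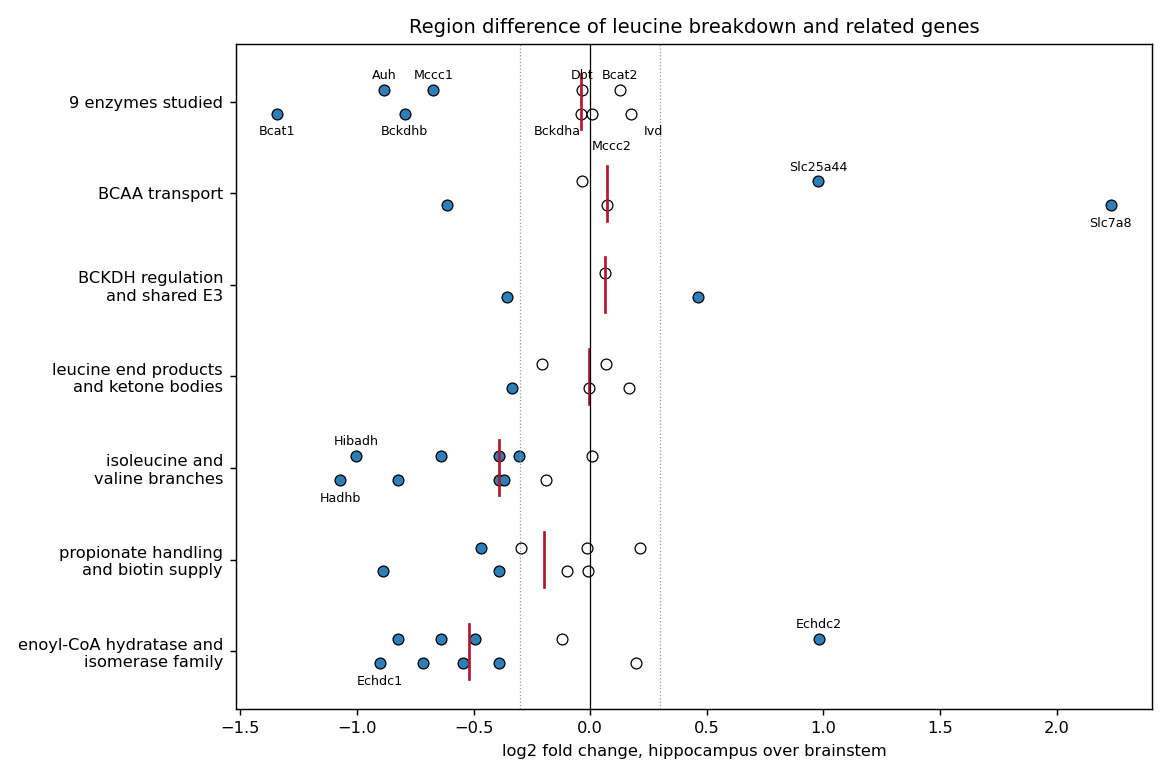
Log2 fold change of hippocampus over brainstem (x axis, dotted lines the 0.3 threshold) for the 9 enzymes and 6 lists of related genes (y axis); filled points were called, red lines are list medians. *Bcat1* at −1.34, *Auh*, *Bckdhb* and *Mccc1* lie left of −0.3, and 5 of the 9 lie between the thresholds.

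Per length, the order of the 9 levels differed between regions. As CPM per kilobase of annotated exons (RPKM), *Bcat1* led in brainstem at 25.0 ± 1.94 (SD, n = 23), ahead of *Bckdhb* at 17 ± 1.25 and *Ivd* at 13.0 ± 0.836. In hippocampus *Ivd* led at 14.3 ± 0.967 (SD, n = 24), and *Bcat1* at 9.59 ± 0.71 and *Bckdhb* at 9.56 ± 0.554 did not differ beyond their spread. *Mccc2*, *Dbt* and *Auh* came next in brainstem at 6.86 ± 0.762, 6.54 ± 0.949 and 5.74 ± 1.03, within each other's spread over both genotypes, followed by *Bckdha* at 4.44 ± 0.805. *Mccc1* at 1.79 ± 0.218 and *Bcat2* at 1.66 ± 0.241 were lowest there and did not differ beyond their spread. In hippocampus *Mccc2* at 6.72 ± 0.51 and *Dbt* at 6.2 ± 0.646 overlapped in spread, *Bckdha* had 4.2 ± 0.674 and *Auh* 3.05 ± 0.591, and *Bcat2* at 1.76 ± 0.182 stood above *Mccc1* at 1.09 ± 0.122. The genes were not ranked within a genotype, and *Auh* had a brainstem median of 65.2 CPM in WT and 46.5 in TG against 19.3 and 23.3 for *Dbt*. The place of *Auh* also depends on the length used: its annotated exons cover 9580 bases and its longest transcript 3235, and by the latter it stood at 9.03 in hippocampus and at rank 4 in both regions.

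From library to library, the other enzymes had low correlations with *Auh* in log2 CPM. Within the groups of brainstem, those of *Bckdhb* and *Mccc2* were higher. Pearson's r of log2 CPM with *Auh* ran from −0.18 for *Dbt* to 0.39 for *Mccc2* in brainstem (23 libraries) and from −0.17 for *Bckdhb* to 0.30 for *Dbt* in hippocampus (24 libraries). Of the deviations from group means, those of *Bckdhb* (0.64) and *Mccc2* (0.50) were most like those of *Auh* in brainstem, and their values in hippocampus were 0.21 and 0.15. Among all tested genes, the most like *Auh* in brainstem were *Mrpl21*, a mitochondrial ribosomal protein gene (0.76), *Lrrc49*, *Eme2*, *Ddx39b* and *Dad1* (0.65), and in hippocampus *Serpina3n*, an astrocyte protease inhibitor (0.78), *Mc4r*, *Pdhb*, a pyruvate dehydrogenase subunit (0.69), *Rasgef1a* and *Olfm4*. Among the least like it were, in brainstem, *Thy1* (−0.83), *Gm15446* (−0.78), *Gabra2* and *Arl14ep*, and, in hippocampus, *Gm15446* (−0.74), *Car12*, *Thy1* and *Zfp932*. *Thy1* is the gene whose promoter drives the transgene. Its mean was 549.3 CPM in WT_SD and 7885 in TG_SD brainstem, and 567.9 and 7245 in hippocampus. Its r with *Auh* is therefore not separate from the genotype difference. These correlations share libraries, depth and group structure and carry no p-value, and when deviations from group means were used, 0 of the 5 highest genes in brainstem and 1 of 5, *Mc4r*, in hippocampus were the same.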

How the data were processed

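Brainstem and hippocampus RNA of male mice was sequenced as poly(A)-selected single-end libraries. The authors checked reads with FastQC 0.11.9, aligned them with STAR 2.7.9a to an Ensembl mouse genome with the transgene added, and deposited raw counts per gene for each region; the counting tool, its use of strand and its treatment of shared reads are not given in the sources used here. *Mccc1*, *Bcat1*, *Bcat2*, *Bckdha*, *Bckdhb* and *Dbt* overlap other annotated genes, so some of their reads may be shared.

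Symbols, lengths and gene order came from an older annotation (GRCm38), matched by identifier. Counts of genes with a mean of at least 50 were scaled by TMM and tested in edgeR 4.0.16 (R 4.3.3) by quasi-likelihood, with all groups of a region fitted together and 4 surrogate variables (sva 3.50.0) in each region, and Benjamini-Hochberg adjustment over all genes tested. Genes were called at an adjusted p of at most 0.05 and a log2 fold change of at least 0.3 either way. The 7 contrasts of a region were 2 of genotype, 2 of diet, their interaction and the means over diets and genotypes. Regions were compared in 1 fit of both tables with 8 groups and no surrogate variables. CPM were scaled within each region; log2 CPM used a prior count of 2. Alternatives were DESeq2 1.42.0, other size factors, filters, surrogate variable numbers, a GC offset, a replicate block, and fits without single libraries. The scripts were tested on simulated data. Counts of the 115 same-group pairs of libraries differed by more than sampling noise (chi-square per gene of 3.659 or more). Groups came from the labels and every library given was used; by the study's methods each library of a region is a different animal.

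The 9 genes, the lists and the tests were chosen with earlier results of these data known. Named genes are the 9 enzymes, list members that were called or, where none was, the 2 farthest from 0 of each list in the contrast with the most calls, the 5 tested genes on each side of *Auh*, and the 5 most and least like it in each region; some of these are not reported here. The precision of a level is set by its reads: *Bcat2* and *Bckdha* had as few as 58 and 71 per library in brainstem and *Auh* at least 478.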

Additional observations from a re-analysis of the deposited data

Results flagged for a closer look

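In 5 of the 72 sets of libraries (9 genes, 4 groups, 2 regions) the highest or lowest library stood far from the others of its group; chance gives about 1 such set in 20. *Auh* in hippocampus TG_SD replicate 5 had 30.5 CPM, against 25.9 in the next library, and the same library was high in *Bckdhb* at 20.4 CPM, against 17.7 in the next. *Bckdhb* in hippocampus WT_HFD replicate 8 was low at 15.2 CPM, with 17 the nearest. *Dbt* in hippocampus WT_SD replicate 6 was high at 25.9 CPM, with 22.2 the nearest. *Bcat2* in brainstem TG_SD replicate 7 was high at 8.25 CPM, with 6.65 the nearest.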

How the results depend on the processing

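Hippocampal *Auh* TG_SD/WT_SD was called in 11 of the 14 alternatives, from −0.54 to −0.48. Among the 11, the setting with no fold threshold reuses the main fit, so its call was fixed in advance. The value was no longer called in a fit of the 2 groups compared (−0.4835, edgeR adjusted p = 0.112). It was also not called without the libraries numbered 7 in every group (−0.4839, edgeR adjusted p = 0.0546), a setting chosen after seeing the data. The mean TG/WT of *Auh* in hippocampus was called in 13 of 13, from −0.49 to −0.37, again with the reused main fit among them. DESeq2 gave no adjusted p for TG_SD/WT_SD with its independent filtering and 0.00501 without it, a setting also added later. Without single libraries these values ran from −0.5858 to −0.4602 and from −0.4834 to −0.3728. Hippocampal *Auh* TG_HFD/WT_HFD was called in 0 of 14 alternatives, with values from −0.45 to −0.26. Within regions, none of the other 8 enzymes was called in any of the 15 settings or 47 fits without single libraries. No called value reversed; 430 values within regions and 51 between regions that were not called changed sign.

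With the replicate number as a block, *Auh* in hippocampus was −0.5406 for TG_SD/WT_SD (adjusted p = 0.006) and −0.4933 for the mean of both diets (adjusted p = 0.00381), and in brainstem −0.4912 for TG_SD/WT_SD; the block changed no call of the 9 enzymes. Deviations of same-numbered libraries of the 2 regions correlated at a median of 0.125, over 0.1 in 10 of 17 pairs. For the 121 pairs of other numbers in the same group the median was −0.0238. These values do not settle whether same-numbered libraries share an animal, and the main fit of both regions treated all libraries as unpaired.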
